A study of Homo sapiens with 8 samples.

Results

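The Hedgehog receptors and GLI factors described here are 9 genes: the receptor gene PTCH1, the signal transducer gene SMO, the co-receptor genes BOC and GAS1, the ligand trap gene HHIP, the inhibitor gene SUFU, and the transcription factor genes GLI1, GLI2 and GLI3. They were chosen by symbol in the platform annotation from the 16578 genes it names, and each had exactly 1 probe among the 22184 probes of the Illumina bead array, so every value below rests on a single probe. Of these 9 probes, 8 entered the test, and GLI1 did not because it was below detection on all 8 arrays.

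The arrays read total RNA of DAOY, an established human medulloblastoma cell line. There were 5 stable lines with the plasmid pHM6-MXD3 (MXD3 lines 1 to 5), 2 stable lines with empty pHM6 (vector lines 1 and 2) and 1 sample of the untransfected parental cells, all on the DAOY background and each on 1 array. Per the labels, selection and culture of the stable lines used G418 at 800 µg/ml. The labels do not say whether a line is a single clone or when it was grown, so p-values cover the spread between these cultures only, which may be partly technical. The design sets MXD3 lines against both kinds of control.

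Hedgehog ligands bind the receptor PTCH1, which without ligand holds back SMO. Released SMO acts at the primary cilium to free the GLI factors from SUFU. GLI2 is mainly an activator, GLI3 mainly a repressor when processed, and GLI1 is an activator whose gene is itself a target of the pathway. PTCH1 and HHIP are targets too and limit the signal. In the cerebellum this pathway drives division of granule neuron precursors, and its mutation defines 1 subgroup of medulloblastoma.

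Between 60.5% and 64% of probes were detected per array, detection meaning a deposited detection p-value below 0.05, and mean intensities ran from 1346 to 1797. The MXD3 probe read 7.47, 7.22, 6.98, 8.08 and 6.18 in the arrays labelled MXD3 line 1 to 5, against 6.93 and 6.71 for the vector lines and 6.59 for the parental cells, on the log2 intensity scale used throughout. The array labelled MXD3 line 5 thus lay below every control for the gene its label names. Whether this probe reads the transgene was not tested, and the differences of the members from the vector and parental lines are also given without that array. The parental array stood apart in the large ribosomal RNA (RNA28SN5), at 11.40 against 14.46 to 14.91 in the 7 stable lines. Of 9 markers of medulloblastoma and granule neuron precursors on the array, 6 were detected on every array, while ATOH1, ZIC1 and NES were detected on none. Of 5 markers of the SHH subgroup, PDLIM3, EYA1, HHIP and SFRP1 were detected on all 8 arrays and ATOH1 on none. Values are from bulk RNA, in which fewer cells expressing a gene and less RNA per cell cannot be told apart.

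Relative to the vector and parental lines together, the MXD3 lines had higher mean levels of 5 members (PTCH1, GLI2, SMO, SUFU and GLI3) and lower mean levels of 3 (BOC, HHIP and GAS1). Among the members with higher means, PTCH1 differed by 0.71 ± 0.29 (SE), GLI2 by 0.52 ± 0.19 and SMO by 0.40 ± 0.17, from 5 against 3 arrays. PTCH1 was not detected in the parental cells, and with normexp at an offset of 50 it differed by 0.39, against 0.41 for GLI2 and 0.36 for SMO. None of the 8 members passed limma's test after Benjamini-Hochberg adjustment over all 15214 probes tested (adjusted p = 0.374 to 0.877), and neither did any other probe (0% called). At an unadjusted p under 0.05, 3 of the 8 members had higher levels and 0 had lower levels, where 5.65% of all probes tested were higher and 5.6% were lower at that level. The count of 3 was 2 without MXD3 line 1 or vector line 2, 1 without MXD3 line 3, MXD3 line 4 or the array labelled MXD3 line 5, and 0 without the parental array. With all arrays kept, it was 2 with the series matrix values and 2 with array weights. Without MXD3 line 1, BOC was lower at that level. Higher means were found for 50% of all probes. The median difference of the 8 members was 0.24, against -0.00042 over all probes.

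**Figure D1:**
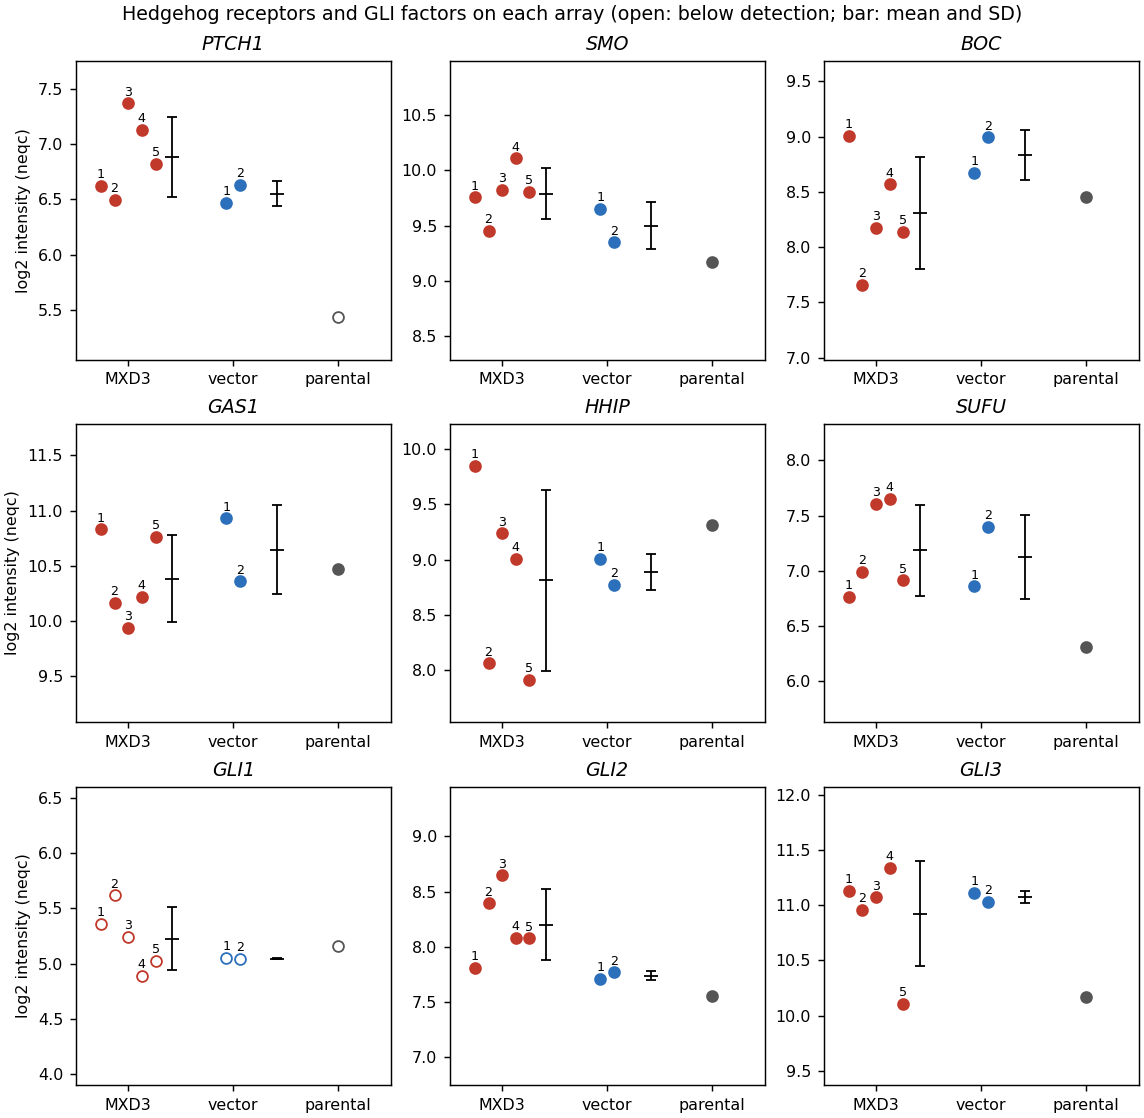
Level of each of the 9 genes (y axis, log2 intensity after neqc normalization, 1 panel per gene and the same span in each) on each array of the MXD3, vector and parental groups (x axis). Filled points were detected, open points were not, numbers name the stable line, and the black bars give the mean and SD of groups with more than 1 array. GLI2 is the 1 gene whose 5 MXD3 arrays, at 7.81 to 8.65, all lie above the 3 controls, and GLI1 is below detection on every array.

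GLI2 encodes the factor that carries out much of the transcriptional activation by Hedgehog signalling. Its level was 7.81, 8.39, 8.65, 8.08 and 8.08 in MXD3 lines 1 to 5, against 7.71 and 7.77 for the vector lines and 7.55 for the parental cells. All 5 MXD3 lines lay above all 3 controls, by little in line 1 and most in line 3. GLI2 was the 1 member of 8 without overlap in this comparison, a state found in 3.58% of all probes for higher and 4.02% for lower levels. The MXD3 mean was 8.20 ± 0.32 (SD, n = 5) and the control mean 7.68 ± 0.11 (SD, n = 3). The difference of 0.52 corresponds to 1.44-fold, with a 95% confidence interval of 0.10 to 0.95 on the log2 scale, and limma gave an unadjusted p of 0.0206 and an adjusted p of 0.374. Relative to the vector lines alone the difference was 0.46 ± 0.22 (SE), with an interval of -0.05 to 0.97 and an adjusted p of 0.681. Without the array labelled MXD3 line 5 the differences were 0.56 against vector and parental lines and 0.49 against the vector lines.

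GLI3, the family member that is processed into a repressor, was divided within the groups. It read 11.13, 10.95, 11.07, 11.34 and 10.11 in MXD3 lines 1 to 5, against 11.11 and 11.03 for the vector lines and 10.17 for the parental cells. The array labelled MXD3 line 5 and the parental array were both low, and the other 6 arrays lay close together. The difference from the vector and parental lines was 0.15 ± 0.30 (SE), with an interval of -0.53 to 0.83 (adjusted p = 0.877). It was 0.35 without the array labelled MXD3 line 5 and -0.15 without the parental array.

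GLI1, whose transcript is widely used as a readout of Hedgehog activity, gave unprocessed intensities of 195, 193, 175, 145 and 158 in MXD3 lines 1 to 5, against 157 and 153 for the vector lines and 166 for the parental cells. Its detection p-value ran from 0.0776 to 0.583 and was above 0.05 everywhere. No fold is given, since GLI1 was detected in neither group.

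PTCH1 encodes the receptor that binds the ligands and is itself induced by GLI factors. Its level was 6.62, 6.49, 7.37, 7.13 and 6.82 in MXD3 lines 1 to 5, against 6.47 and 6.63 for the vector lines and 5.43 for the parental cells. MXD3 lines 3 and 4 and the array labelled MXD3 line 5 lay above all controls, lines 1 and 2 lay between the vector lines, and the parental array was far below the rest and the only array on which PTCH1 was not detected (its detection p-value was 0.104). The MXD3 mean was 6.89 ± 0.36 (SD, n = 5) and the control mean 6.18 ± 0.65 (SD, n = 3). The difference had an interval of 0.05 to 1.37, and limma gave an unadjusted p of 0.0375 and an adjusted p of 0.413. Relative to the vector lines alone it was 0.34 ± 0.24 (SE), with an interval of -0.22 to 0.89 and an adjusted p of 0.773. The difference of 0.71 with the parental array among the controls was thus 0.34 without it. Without the array labelled MXD3 line 5 the difference from vector and parental lines was 0.72 (unadjusted p = 0.054 by limma). It was 0.39 with normexp at an offset of 50 and 0.95 with the series matrix values.

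The PTCH1 promoter is shown because PTCH1 was both a receptor and a pathway target among the members. Promoter windows from RefSeq (GRCh38.p14, 250 bases before to 50 after a start) were found for 7 of the 9 members, 13 windows in all. They were searched on both strands for the GLI motif GACCACCCA and for the E-box CACGTG, a motif bound by MXD and MYC proteins with MAX. Neither motif contains the other. The GLI motif was found in 1 of the 13 windows, that of 1 of the PTCH1 starts, where its reverse complement TGGGTGGTC begins 172 bases before the start. The 250 bases before that start, chr9:95509267-95509516 on the minus strand, are printed 5′ to 3′ along the gene with the match in capitals.
PTCH1: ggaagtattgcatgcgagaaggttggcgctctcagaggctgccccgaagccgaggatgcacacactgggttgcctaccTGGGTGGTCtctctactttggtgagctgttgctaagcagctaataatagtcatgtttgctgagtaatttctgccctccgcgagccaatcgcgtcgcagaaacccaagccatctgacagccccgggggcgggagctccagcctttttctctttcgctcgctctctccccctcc
Of all 35116 windows, 0.236% held this motif. The E-box was found in 0 of the 13 windows and in 7.26% of all windows. A match describes the letters of the window and not a bound site.

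SMO encodes the transmembrane protein that PTCH1 holds back. Its level was 9.75, 9.46, 9.82, 10.11 and 9.81 in MXD3 lines 1 to 5, against 9.65 and 9.35 for the vector lines and 9.17 for the parental cells. MXD3 lines 1, 3 and 4 and the array labelled MXD3 line 5 lay above all controls, and line 2 lay between the vector lines. The MXD3 mean was 9.79 ± 0.23 (SD, n = 5) and the control mean 9.39 ± 0.24 (SD, n = 3). The interval of the difference was 0.01 to 0.79, with an unadjusted p of 0.0445 and an adjusted p of 0.431 in limma. Relative to the vector lines it was 0.29 ± 0.19 (SE), with an interval of -0.15 to 0.73 and an adjusted p of 0.757. Without vector line 2 this last value was 0.14, and without vector line 1 it was 0.44. Without the array labelled MXD3 line 5 the difference from vector and parental lines was 0.40 (unadjusted p = 0.0676 by limma).

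SUFU encodes the protein that binds GLI factors and keeps them inactive. Its level was 6.77, 6.99, 7.61, 7.65 and 6.91 in MXD3 lines 1 to 5, against 6.86 and 7.40 for the vector lines and 6.31 for the parental cells. MXD3 lines 3 and 4 were the 2 highest arrays, but vector line 2 followed them closely, and the other 3 MXD3 arrays lay within the range of the controls. The difference from vector and parental lines was 0.33 ± 0.29 (SE), with an interval of -0.31 to 0.97 (adjusted p = 0.688), and 0.40 without the array labelled MXD3 line 5. From the vector lines alone it was 0.06 ± 0.29 (adjusted p = 0.97), and it was 0.33 without vector line 2 and -0.21 without vector line 1.

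HHIP encodes a membrane protein that binds Hedgehog ligands and competes with PTCH1 for them. Its level was 9.85, 8.06, 9.24, 9.005 and 7.91 in MXD3 lines 1 to 5, against 9.01 and 8.77 for the vector lines and 9.31 for the parental cells. MXD3 line 1 was the highest of the 8 arrays, the array labelled MXD3 line 5 and line 2 were the lowest, and the 3 controls lay between them. The MXD3 lines spanned 3.83-fold, and their SD of 0.82 was larger than that of 98.1% of all probes tested. The difference from vector and parental lines was -0.22 ± 0.41 (SE), with an interval of -1.13 to 0.69 (adjusted p = 0.867), and 0.01 without the array labelled MXD3 line 5. The distance from the lowest to the highest MXD3 line was 1.94, against this difference of -0.22 between the group means.

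BOC encodes a cell surface co-receptor that presents ligand to PTCH1. Its level was 9.01, 7.66, 8.17, 8.57 and 8.14 in MXD3 lines 1 to 5, against 8.67 and 8.99 for the vector lines and 8.46 for the parental cells. Lower than all controls were MXD3 lines 2 and 3 and the array labelled MXD3 line 5, while line 1 was the highest of the 8 arrays closely followed by vector line 2. The difference was -0.40 ± 0.28 (SE) from the vector and parental lines, with an interval of -1.01 to 0.22 (adjusted p = 0.605), and -0.35 without the array labelled MXD3 line 5. It was -0.52 ± 0.32 from the vector lines alone, with an interval of -1.25 to 0.21 (adjusted p = 0.736). Without MXD3 line 1 these differences were -0.57 and -0.70, and without MXD3 line 2 they were -0.23 and -0.36.

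GAS1 encodes a further co-receptor, anchored to the membrane by a lipid. Its level was 10.83, 10.17, 9.94, 10.22 and 10.76 in MXD3 lines 1 to 5, against 10.93 and 10.36 for the vector lines and 10.47 for the parental cells. MXD3 lines 2, 3 and 4 lay below all controls, and no MXD3 line lay above vector line 1. The difference from vector and parental lines was -0.20 ± 0.24 (SE), with an interval of -0.73 to 0.32 (adjusted p = 0.776), and it was -0.03 without vector line 1 and -0.30 without the array labelled MXD3 line 5.

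**Figure D2:**
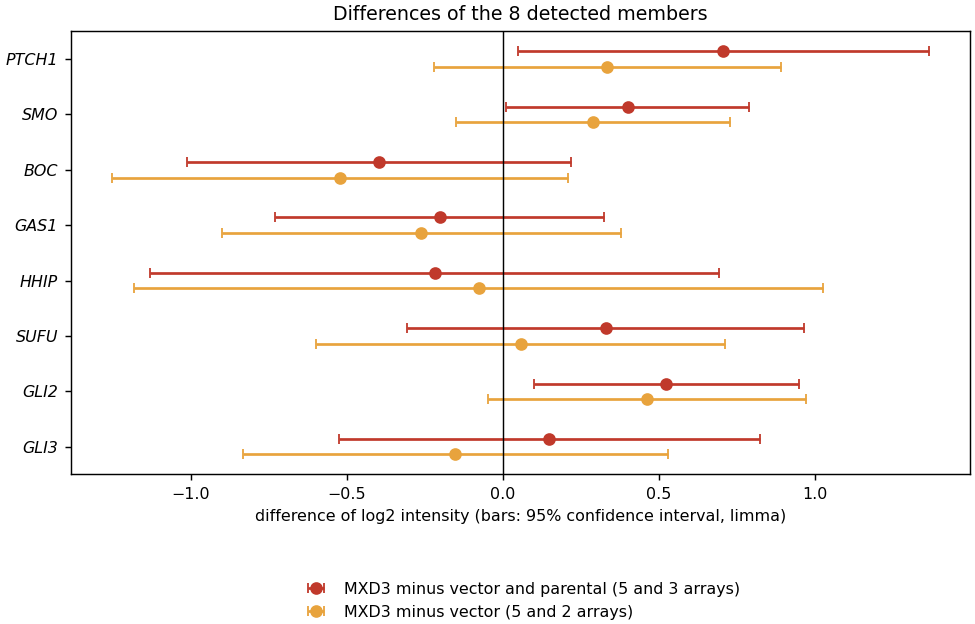
Difference of log2 intensity (x axis) of the 8 detected members (y axis), MXD3 lines minus vector and parental lines in red and MXD3 lines minus vector lines in orange, with limma's 95% confidence interval as bars. In red the intervals of PTCH1, SMO and GLI2 lie above 0, and in orange all 8 intervals include 0.

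Against the vector lines alone, 4 of the 8 members had higher means and 4 lower ones, with a median difference of -0.01, where 50.8% of all probes had higher means and the median of all probes was 0.01. None of the 8 reached an unadjusted p under 0.05, a level passed by 3.84% of all probes as higher and 3.73% as lower. GLI2 again was the 1 member whose MXD3 lines lay above both vector lines, as 6.47% of all probes did. This comparison and the one with vector and parental lines share the vector arrays, so their values are not independent.

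Relative to the parental array alone the MXD3 lines had higher means of 5 members, and the vector lines of 7, where 48.9% and 48.3% of all probes were higher. In each of these comparisons 1 probe passed the adjusted threshold (0.00657% of those tested), and it was not a member. For PTCH1, not detected in the parental cells, the mean on the neqc scale was at least 2.37-fold higher in MXD3 lines and at least 1.88-fold higher in vector lines. These bounds are set against the lowest detected signal of the parental array and carry no test. These bounds hold for that scale only: with normexp at an offset of 50 the log2 differences were 0.77 and 0.57, which are smaller. All 5 MXD3 lines lay above the parental array for PTCH1, SMO, SUFU and GLI2, 4 of 8 members, where 22.2% of all probes did so. Both vector lines lay above it for 6 of 8 members, where 33.3% of all probes did so. GLI3 differed by 0.75 ± 0.39 (SE) in the MXD3 lines and 0.90 ± 0.44 in the vector lines, and SUFU by 0.87 ± 0.38 and 0.82 ± 0.42. HHIP was the 1 member with negative values in both, at -0.50 ± 0.63 and -0.42 ± 0.71. None of these passed over all probes (adjusted p = 0.161 to 0.942 for the MXD3 lines and 0.502 to 0.965 for the vector lines). The parental group is 1 array, assumed to vary like the others, and it is the array that stood apart in ribosomal RNA. The part of that array's RNA in these values was not tested.

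**Figure D3:**
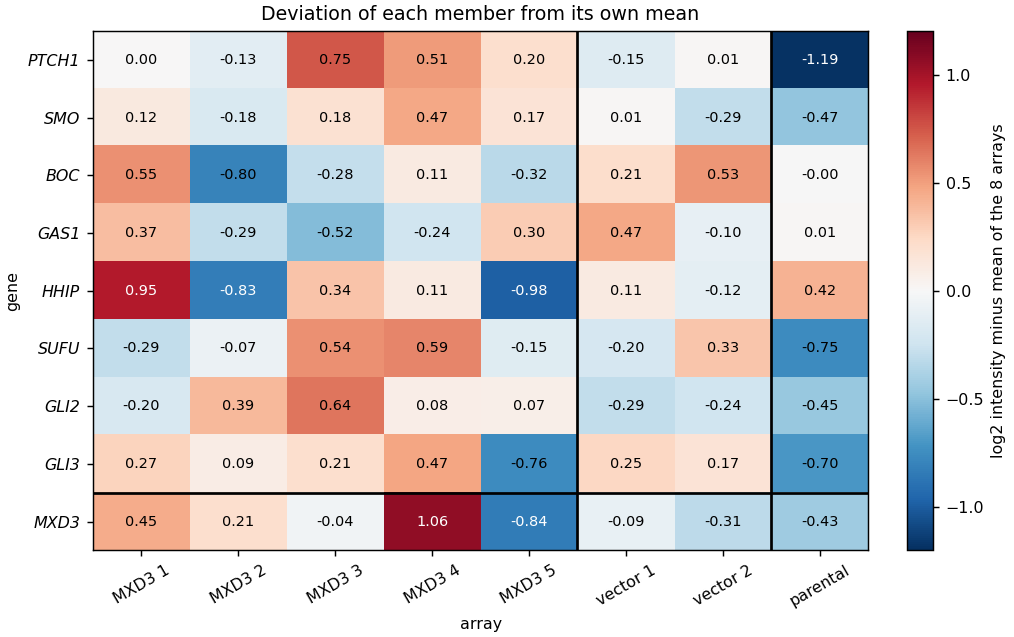
Deviation of each detected member, and of MXD3 below the line, from its own mean over the 8 arrays (colour and printed number, log2 intensity), with genes in rows and arrays in columns. The parental column holds the lowest values of PTCH1, SMO, SUFU and GLI2. The share of all probes that were lowest on that array was not computed. HHIP runs from 0.95 in MXD3 line 1 to -0.98 in the array labelled MXD3 line 5.

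The members did not share 1 order of the arrays. The highest of the 8 arrays was MXD3 line 4 for SMO, SUFU and GLI3, MXD3 line 3 for PTCH1 and GLI2, MXD3 line 1 for HHIP and BOC, and vector line 1 for GAS1. MXD3 line 4 was above the mean for 7 of the 8 members and lines 1 and 3 for 6, while line 2 and the parental cells were above it for 2 each. All 8 members varied more over the 8 arrays than the median probe, whose SD was 0.27. The smallest SD was that of SMO at 0.30, larger than that of 58.4% of probes, and the largest were those of HHIP at 0.64 (95.8%) and PTCH1 at 0.57 (93.9%). Among the 1000 probes of most similar mean level, the share was 95.8% for HHIP, 94.4% for GLI3, 85.9% for BOC, 85.6% for PTCH1 and 85.2% for GAS1. It was 76% for SUFU, 70.2% for SMO and 68.9% for GLI2. The PTCH1 value includes the parental array, where PTCH1 was not detected and deviated by -1.19 from its mean. Among the 5 MXD3 lines alone the SD of PTCH1 was 0.36, larger than that of 77.1% of probes, and the next after HHIP were BOC at 0.51 (91.5%) and GLI3 at 0.48 (89.7%). SMO, at 0.23 (46.6%), varied less among these lines than the median probe, at 0.24.

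For each member the genes with the most similar pattern were found by the root mean square difference of centred log2 levels over the 8 arrays, among 12161 genes. GLI3 was nearest to TICRR (0.07), then DDR2 (0.15) and FOXM1 (0.15). FOXM1 is also in the list of genes reported as Hedgehog targets. Only the nearest gene is given for the other members. BOC was nearest to IMMP2L (0.08), SMO to ZNF675 (0.08), GLI2 to ADGRG2 (0.10), GAS1 to GALC (0.14), SUFU to ARL3 (0.19), PTCH1 to SORBS3 (0.20) and HHIP to ALDH3B1 (0.29). The median difference of all genes from a member ran from 0.37 for SMO to 0.64 for HHIP. These values describe the 8 arrays and carry no test.

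The rest of the pathway was read from lists by role, and none of the listed genes passed over all probes in either comparison. The 3 ligand genes SHH, IHH and DHH were detected on no array. Of 9 genes of ligands and their release, 3 were tested, 1 with a higher and 2 with a lower mean relative to the vector and parental lines. DISP2, which encodes a relative of the ligand release protein DISP1, differed by 0.31 ± 0.18 (SE), and DISP1 by -0.07 ± 0.16. Among further receptors and co-receptors, 3 of 4 genes on the array were tested and CDON was detected on none. GPR161, which encodes a ciliary receptor that restrains the pathway, differed by 0.38 ± 0.16 (unadjusted p = 0.0412 by limma), with an MXD3 mean of 7.41 ± 0.20 (SD, n = 5) and a control mean of 7.03 ± 0.24 (SD, n = 3). From the vector lines alone it differed by 0.31 ± 0.19 (SE, unadjusted p = 0.132 by limma). Vector line 1 (7.30) lay inside the range of 7.19 to 7.68 of the MXD3 lines.

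Of 13 tested genes of kinases and degradation, 7 had higher and 6 lower means, with a median difference of 0.01 and 0 of 13 at an unadjusted p under 0.05. CSNK1E, a casein kinase gene, differed by -0.49 ± 0.26 (SE), and by -0.14 from the vector lines alone. A second CSNK1E probe, detected on 3 arrays, gave 0.30 against vector and parental lines. DYRK2, a kinase gene, differed by 0.39 ± 0.22, and its second probe, detected on 5 arrays, by 0.01. The DYRK2 value was 0.19 without the parental array and 0.61 without vector line 2. Of 11 tested genes of the cilium and GLI trafficking, 5 had higher and 6 lower means, with a median of -0.02. IFT88, which encodes a protein of transport within the cilium, differed by 0.44 ± 0.23. Its second probe, detected on only 3 arrays, differed by 0.46. TULP3, which carries GPR161 into the cilium, differed by 0.28 ± 0.15.

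Of 11 tested genes reported as Hedgehog targets, 7 had higher and 4 lower means, and at an unadjusted p under 0.05 there were 3 higher and 1 lower, where 5.65% and 5.6% of all probes were. With 1 array left out there were 0 to 3 higher and 0 to 1 lower, and 0 of either without the parental array. With all arrays kept, 1 was higher with array weights and 4 with median scaling, with 1 lower in each. FOXF1, a forkhead factor gene of mesenchyme, differed by 0.84 ± 0.31 (SE), with 8.43 in vector line 1 inside the range of 8.23 to 9.21 of the MXD3 lines. CCND1, which encodes cyclin D1, differed by 0.58 ± 0.26, with vector line 1 (14.65) and the parental cells (14.16) inside the range of the MXD3 lines (14.13 to 15.27). BCL2, a survival gene, differed by 0.42 ± 0.18, and its other tested probe by 0.09. Vector line 2 (8.38) lay inside the range of 8.11 to 8.74 of the MXD3 lines for BCL2. SNAI1, a transcription factor gene of the mesenchymal transition, differed by -0.97 ± 0.37. For SNAI1, vector line 1 (7.89) and the parental cells (8.47) lay inside the range of the MXD3 lines (6.67 to 8.48). Relative to the vector lines alone 5 targets had higher and 6 lower means, and 0 of 11 reached that level. This is the same result as that without the parental array, not a second one. Markers of fibroblasts and mesenchyme, of which 6 to 9 of 9 were detected per MXD3 array and 8 to 9 per control array, had a summed intensity of 19290 to 25370 in the MXD3 lines and 21630 to 26340 in the controls. The sum is on the linear scale, so it rests mostly on COL1A1, THY1 and COL1A2 (MXD3 means of 13.38, 12.64 and 11.64 in log2). Of the 9 markers, 3 had higher and 6 lower means, and at an unadjusted p under 0.05 there were 0 higher and 2 lower. The 2 were COL3A1 at -1.60 and LUM at -1.40. LUM was detected in only 2 MXD3 lines, in 2 vector lines and not in the parental cells. Its values thus rest partly on signals below detection, also the difference of -0.06 from the parental array alone. The 3 with higher means were PDGFRA at 0.77, PDGFRB at 0.50 and THY1 at 0.42. Of the other marker lists, EOMES of the granule neuron precursor list (-0.70), CD3E of the blood and endothelial list (0.43) and EPCAM of the epithelial list (-0.43) had an unadjusted p under 0.05 by limma. In the list of EOMES, 3 of the 6 tested genes had higher and 3 lower means. In that of CD3E, 2 of 3 had higher means and PTPRC a lower one (-0.55). CD3E was detected on 7 arrays and PTPRC on 5, both near the lowest detected signals. The 2 tested epithelial genes had lower means, and EPCAM was detected on only 3 arrays. These marker genes are named after their values were seen. The part of such cells or of a mesenchymal state in the values above was not tested.

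**Figure D4:**
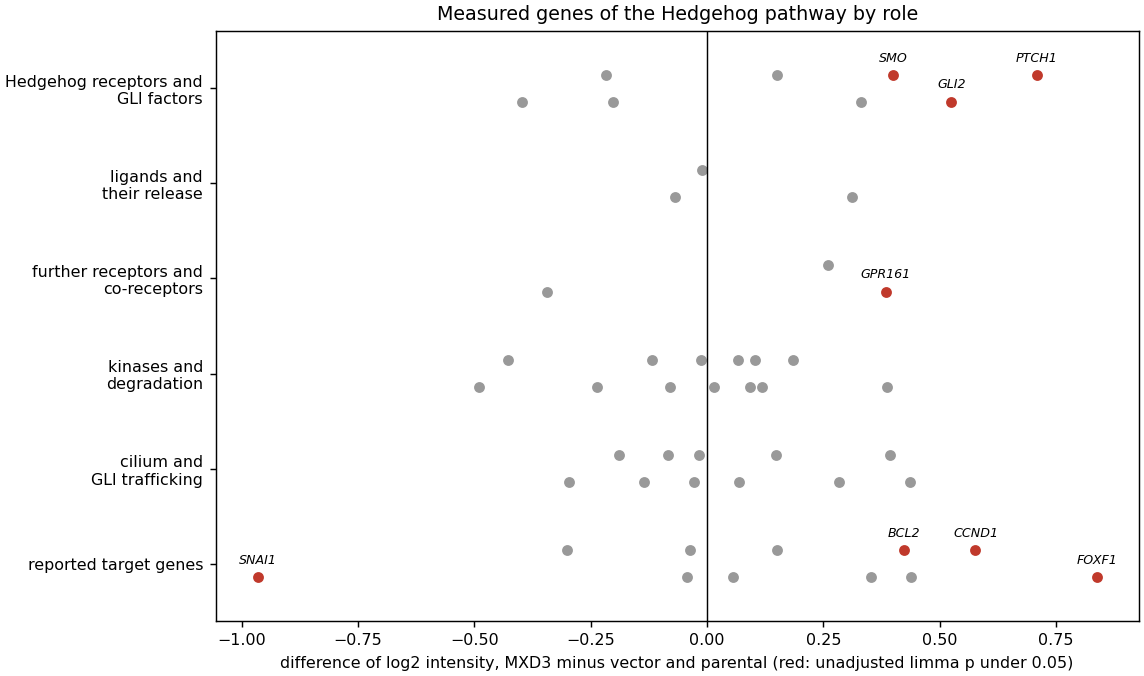
Difference of log2 intensity between the MXD3 lines and the vector and parental lines (x axis) for each tested gene of 6 lists (y axis), with genes at an unadjusted limma p under 0.05 in red and named. The points of every list lie on both sides of 0, from -0.97 for SNAI1 to 0.84 for FOXF1, and PTCH1, SMO and GLI2 are the members in red.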

How the data were processed

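The authors deposited 1 table of non-normalized intensity with a detection p-value per probe and array, and a series matrix of intensity values. Per the submitters' processing notes, BeadStudio was used, with no version given. Within each array the series matrix followed the first table linearly (largest residual 0.0121), with a common mean of 1363, so the authors had subtracted a constant and scaled each array. The first table was background-corrected with neqc, which then quantile-normalizes and takes log2 (limma 3.58.1, R 4.3.3, offset 16). Probes with a deposited detection p-value below 0.05 on at least 2 arrays were tested (15214 of 22184) with lmFit and eBayes, two-sided, adjusted by Benjamini-Hochberg over all of them at a threshold of 0.05. The fit of 2 groups set the MXD3 lines against all controls, and a fit of 3 groups gave the other comparisons. The fits were tested on simulated data. Symbols came from the platform annotation, updated through Entrez IDs to RefSeq (GRCh38.p14). A total of 19715 probes named 1 gene, 2469 had no symbol and none named several. The brightest tested probe stood for a gene in lists. The number of arrays limits the precision.

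The members and lists were chosen with earlier results of these data known. The text names every member, MXD3, and of each pathway list up to 4 genes at an unadjusted p under 0.05 against vector and parental lines, or else the 2 with the smallest p. For members that varied more than the median probe it also names the nearest patterns. Alternatives were another background correction, the series matrix values, median scaling, filters, 1 probe a gene, array weights, a replicate block and leaving out each array. No slide was named in the headers, so no slide block was run.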

Additional observations from a re-analysis of the deposited data

How the results depend on the processing

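None of the 8 tested members passed the adjusted threshold under any alternative run. Against vector and parental lines, 118 of 120 member values kept their direction, and 0 probes passed in all 15 alternatives, with 1152 to 2131 at an unadjusted p under 0.05. Leaving out 1 array at a time moved HHIP between -0.48 and 0.0081 and GLI3 between -0.15 and 0.35. Of the 11 other pathway genes named, 164 of 165 values kept their direction, and DISP1 ran from -0.161 to 0.00353 with 1 array left out. Against the vector lines, 108 of 120 kept it. With 1 array left out, HHIP ran from -0.34 to 0.15, SUFU from -0.21 to 0.33, GLI3 from -0.26 to 0.052 and GAS1 from -0.54 to 0.025, and HHIP turned to 0.0028 with median scaling and 0.020 with array weights. Leaving out 1 array moved values against the parental array from -0.32 to 0.015 for BOC and -0.20 to 0.024 for GAS1 in the MXD3 lines, and from -0.11 to 0.46 for GAS1 in the vector lines. The count of probes against the parental array was 1 for each kind of stable line, was 3 for the MXD3 lines with the series matrix values, and ran from 0 to 1 for the vector lines with 1 array left out (0 without MXD3 line 1, vector line 1 or vector line 2). The cause of these changes was not tested beyond the arrays named.

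MXD3 and vector lines share the numbers 1 and 2 in the labels, and no label says that a number marks a shared batch or day, so the lines were not treated as pairs. The deviations of same-numbered lines had r = -0.287 and -0.173, which says little, since the deviations of the 2 vector lines mirror each other. With the number as a replicate block, 0 probes passed against the vector lines and 360 had an unadjusted p under 0.05, against 1152 without it. SUFU was then -0.25 and HHIP 0.066, PTCH1 0.0075, SMO 0.11 and GLI2 0.36.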

Other observations

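SUFU and its nearest pattern, ARL3, which encodes a small GTPase of cilia, are close neighbours on chromosome 10, with 1 protein-coding gene, TRIM8, between them. ARL3 was the most similar of 12161 genes, at 6.22, 6.05 and 5.98 in MXD3 lines 3, 2 and 4 and 5.48 and 5.52 in MXD3 line 1 and the array labelled MXD3 line 5, against 5.49 and 6.14 in vector lines 1 and 2 and 5.12 in the parental cells. It was detected on 4 of the 8 arrays, and not in MXD3 line 1, the array labelled MXD3 line 5, vector line 1 and the parental cells, so its low values are not above background and its place in the order of likeness is uncertain. TRIM8 ranked 1132 in likeness to SUFU, and SFXN2, the next gene past ARL3, ranked 11692. This was looked at after the values were seen. No nearest pattern of another member was within 3 protein-coding genes of it.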
